A study of Mus musculus with 8 samples.

Results

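Krt79, Krt19, Krt18, Krt8, Lad1, Cdh1 and Ceacam1 are 7 of the 15521 genes in the deposited expression table, and they were followed here across every library of cultured mouse alveolar macrophages. They were picked by name as keratin and cell junction genes, with their levels in these same libraries already known, so their values are a description and carry no test. RNA was sequenced from cells recovered by bronchoalveolar lavage, selected by 2 h of adherence and kept in medium with 10 ng/ml GM-CSF, the growth factor that maintains alveolar macrophages. There were 4 groups of 2 libraries. In the first, cells received MSDC at 10 µM for 2 h and then Poly(I:C), a synthetic double-stranded RNA that mimics viral RNA, at 5 µg/mL. Cells of the second received DMSO, the vehicle, and then the same Poly(I:C). The third received MSDC without Poly(I:C), and the fourth vehicle without Poly(I:C). The protocol gives 24 h of stimulation, while the series' design text calls it overnight. The labels do not say which compound of the MSDC code series was used, and they give no strain or genotype, since the strain field repeats the treatment. Nothing says that the 2 libraries of a group are from different cultures or different mice, and p-values therefore cover the spread between libraries alone, which may be technical.

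Keratins are the intermediate filament proteins of epithelia. They polymerise only as pairs of a type I and a type II chain, as with KRT18 (type I) and KRT8 (type II) of simple epithelia. KRT19 is a type I keratin of simple and ductal epithelia, and KRT79 is a type II keratin known in mouse skin from the ducts of hair follicles and sebaceous glands. In mouse alveolar macrophages, transcripts of Krt79 and Krt19 are used as identity markers. Ladinin-1, the product of Lad1, is a protein of basement membrane anchorage and of the actin cytoskeleton of epithelial cells. E-cadherin, the product of Cdh1, joins neighbouring epithelial cells through calcium-dependent contacts and is linked to actin by catenins. CEACAM1 is an adhesion receptor of epithelial and immune cells with an inhibitory cytoplasmic tail that recruits the phosphatase SHP-1.

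The libraries held between 28762425 and 29493223 estimated counts. Transcript levels are given in TPM (a share of all transcripts, scaled for gene length), and differences as log2 fold changes with their standard error (SE) from a model of the counts over all 8 libraries. A gene was called where its Benjamini-Hochberg adjusted p in edgeR's quasi-likelihood test was under 0.05, adjusted over all 11621 tested genes. The 15 macrophage markers found in the table summed to between 49325 and 57364 TPM in each library, and none was at 0 in any group. Most of each sum was Lyz2, which averaged between 31233 and 38192 TPM, so the sum says little of the other markers. With MSDC, 6 of the 15 were called higher and 7 lower in each of the 2 comparisons. That is 86.7%, against 26.1% of all tested genes in Poly(I:C) cells and 23.5% in unstimulated cells. Isg15, an interferon-induced ubiquitin-like modifier, averaged 259 and 330 TPM in Poly(I:C) cells with MSDC and with vehicle, against 3.07 and 5.13 TPM in the matching unstimulated cells. Pdk4, a kinase that restrains pyruvate dehydrogenase, averaged 6.71 and 6.18 TPM in MSDC cells with and without Poly(I:C), against 0.335 and 0.22 TPM in the matching vehicle cells. The 2 vehicle libraries without Poly(I:C) differed most from each other, with a chi-square per degree of freedom of 14.8, against 4.29 to 6.36 within the other 3 groups.

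To show what lies upstream of keratin and junction genes that differ sharply in level, the 250 bases before the annotated start are printed for 2 genes that stood high with MSDC, Krt79 and Lad1, and for Krt8 and Krt18, which lie close to Krt79 on the same chromosome and stayed near 1 TPM. All 4 are RefSeq sequences on GRCm38.p6, read 5′ to 3′ on the gene's strand. They cover chr15:101940325-101940574 (minus strand) for Krt79, chr1:135818348-135818597 (plus strand) for Lad1, chr15:102004343-102004592 (minus strand) for Krt8 and chr15:102027966-102028215 (plus strand) for Krt18. Capitals mark AGGTCA, the hexamer bound by many nuclear receptors, and CAGGTG, an E-box bound by the Snail and ZEB repressors of epithelial genes, on either strand (CACCTG is CAGGTG on the opposite strand).
Krt79: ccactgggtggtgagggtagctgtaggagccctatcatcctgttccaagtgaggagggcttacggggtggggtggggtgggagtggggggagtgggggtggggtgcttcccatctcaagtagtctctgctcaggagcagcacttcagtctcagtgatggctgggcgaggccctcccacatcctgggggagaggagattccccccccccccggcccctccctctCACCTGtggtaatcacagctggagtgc
Lad1: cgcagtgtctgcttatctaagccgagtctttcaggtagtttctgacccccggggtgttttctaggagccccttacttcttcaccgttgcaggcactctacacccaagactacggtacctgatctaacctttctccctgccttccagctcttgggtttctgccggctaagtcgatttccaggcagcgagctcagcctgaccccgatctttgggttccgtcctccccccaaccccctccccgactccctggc
Krt8: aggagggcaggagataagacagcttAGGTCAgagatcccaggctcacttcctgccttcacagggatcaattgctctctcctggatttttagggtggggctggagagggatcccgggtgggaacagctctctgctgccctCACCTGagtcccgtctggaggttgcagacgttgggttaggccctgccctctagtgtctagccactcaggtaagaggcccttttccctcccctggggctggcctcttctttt
Krt18: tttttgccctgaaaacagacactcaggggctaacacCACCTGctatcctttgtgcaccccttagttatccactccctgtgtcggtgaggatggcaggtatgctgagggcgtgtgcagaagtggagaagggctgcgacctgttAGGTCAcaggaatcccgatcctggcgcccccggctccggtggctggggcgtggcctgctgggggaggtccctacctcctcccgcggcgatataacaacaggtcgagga
Of the 7 genes, 5 matched an entry of the promoter table by symbol; Krt19 and Cdh1 did not. The Krt79 window held CAGGTG on the opposite strand, beginning 27 bases before the start. Krt8 held AGGTCA at 225 and CAGGTG, on the opposite strand, at 111 bases before the start, and Krt18 held AGGTCA at 108 and CAGGTG, on the opposite strand, at 214. Neither hexamer was found in the windows of Lad1 and Ceacam1. Across the 32851 RefSeq windows of the same length, 14% held AGGTCA and 17.2% held CAGGTG on either strand. A tandem of AGGTCA and AGGTCA with 1 base between them (in 0.0335% of all windows), the interferon-response core of GAAA and GAAA with 2 bases between them (2.98%) and TATAAA (12.4%), searched on both strands, were in none of the 5 windows, and none of the marked matches overlapped another. The sequence match is a description of these letters, with binding not measured here.

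Krt79, Krt19 and Lad1 were many-fold higher with MSDC than with vehicle, both with and without Poly(I:C), while Krt18 and Krt8 stayed near 1 TPM. Cdh1 and Ceacam1 were highest with vehicle alone. They were lower with MSDC in unstimulated cells, and lower with Poly(I:C) with either pretreatment, while in Poly(I:C) cells their log2 fold changes with MSDC were -0.13 and 0.05. Krt19 was lower with Poly(I:C), and Krt79 slightly higher. In unstimulated cells, 3 of the 7 genes were past the threshold as higher with MSDC and 2 as lower, where 11.1% and 12.4% of all tested genes were called higher and lower. In Poly(I:C) cells 3 were past it as higher with MSDC and 0 as lower, against 12.5% and 13.6% of all tested genes. With Poly(I:C), 1 gene was past it as higher and 3 as lower in vehicle cells (7.52% and 4.1% of all tested genes), and likewise 1 and 3 in MSDC cells (4.82% and 1.5%). In MSDC cells the 3 lower genes, Krt19, Cdh1 and Ceacam1, were all short of it with limma on log2(TPM + 1), where Lad1 was past it, and on log2(TPM + 0.1) Krt79 was short of it as well. Because the genes were chosen with these values in view, nothing is read from those counts.

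**Figure D1:**
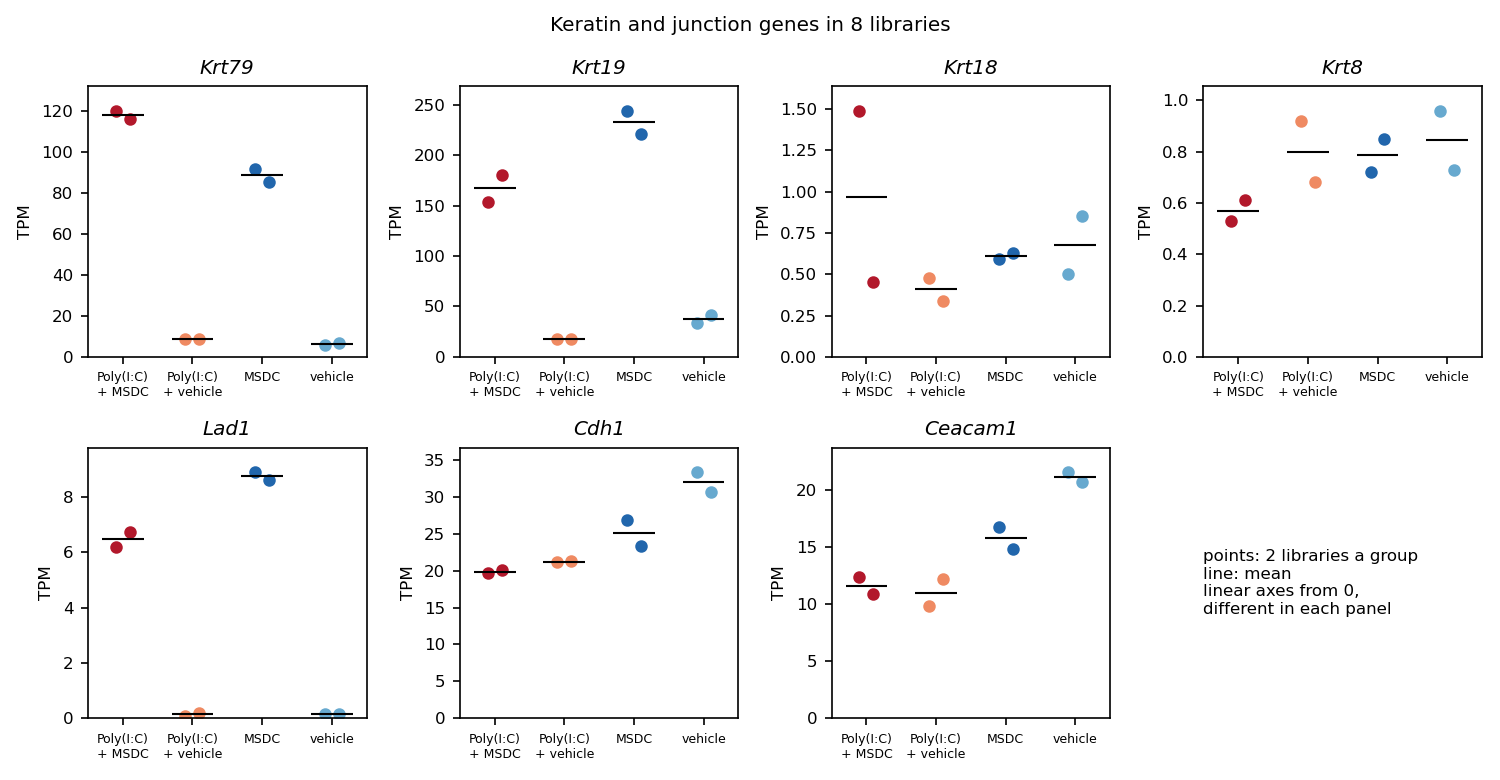
TPM of each of the 7 genes in each of the 8 libraries, 1 panel a gene, with a linear vertical axis from 0 that differs between panels. Points are libraries and lines are group means; the MSDC libraries stand apart from the vehicle libraries for Krt79, Krt19 and Lad1, and vehicle alone is highest for Cdh1 and Ceacam1.

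Krt79 (gene ID 223917, chr15:101929332-101940324), the type II keratin, stood at 120.1 and 115.8 TPM in the Poly(I:C) libraries with MSDC, against 8.76 and 8.89 TPM in those with vehicle. Without Poly(I:C) it stood at 91.8 and 85.3 TPM with MSDC, against 5.71 and 6.74 TPM with vehicle. Both MSDC groups lay far above both vehicle groups, and no 2 of the 4 groups overlapped. The log2 fold change with MSDC was 3.85 (SE 0.10) in unstimulated cells and 3.71 (SE 0.09) in Poly(I:C) cells, which are 14.2-fold and 13.4-fold ratios of mean TPM. Its fold change ranked 25th from the top of the 11621 tested genes in both comparisons. With Poly(I:C) the log2 fold change was 0.56 (SE 0.11) in vehicle cells and 0.42 (SE 0.07) in MSDC cells, the second short of the threshold without MSDC replicate 2.

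Krt19 (gene ID 16669, chr11:100140810-100145926), the type I keratin, had 153.9 and 180.4 TPM in Poly(I:C) libraries with MSDC, against 18.1 and 17.6 TPM in those with vehicle. In unstimulated libraries it had 244.2 and 221.4 TPM with MSDC, against 33.3 and 41.0 TPM with vehicle. The 4 groups did not overlap, and Krt19 had the highest mean TPM of the 7 genes in every group except Poly(I:C) with vehicle, where Cdh1 was higher. MSDC was accompanied by a log2 fold change of 3.12 (SE 0.10) in Poly(I:C) cells, against 2.69 (SE 0.09) in unstimulated cells, or 9.39-fold and 6.27-fold in mean TPM. Poly(I:C) was accompanied by a log2 fold change of -0.95 (SE 0.11) in vehicle cells and -0.52 (SE 0.08) in MSDC cells, so the level was 0.479 and 0.718 times that without it. In vehicle cells it ranked 130th from the bottom of the 11621 tested genes.

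The 2 high keratins differed in direction with Poly(I:C), and together they took nearly all keratin transcripts. Their order in mean TPM was the same in each group, with Krt19 above Krt79. The ratio of Krt19 to Krt79 in TPM was 1.28 and 1.56 in Poly(I:C) cells with MSDC and 2.06 and 1.98 in those with vehicle. Without Poly(I:C) it was 2.66 and 2.60 with MSDC, against 5.83 and 6.09 with vehicle. Each of the 4 groups had its own range of this ratio, lowest where both agents were given and highest where neither was.

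Krt18 and Krt8, the pair of simple epithelia, held between 7 and 30 and between 14 and 25 counts a library. Krt18 (gene ID 16668, chr15:102028216-102032026) had 1.49 and 0.45 TPM in Poly(I:C) libraries with MSDC, against 0.48 and 0.34 TPM with vehicle, and 0.59 and 0.63 TPM in unstimulated libraries with MSDC, against 0.50 and 0.85 TPM with vehicle. The groups overlapped in 3 of the 4 comparisons, and the 1 high library, Poly(I:C) with MSDC replicate 1, held 30 counts against 9 in its replicate, a ratio of 3.32 per total count (exact 95% interval 1.54 to 7.96, covering counting error only). The log2 fold change with MSDC was 1.18 (SE 0.63) in Poly(I:C) cells and 0.08 without that library. It was -0.13 (SE 0.62) in unstimulated cells.

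For Krt8 (gene ID 16691, chr15:101996711-102004342) the values were 0.53 and 0.61 TPM in Poly(I:C) libraries with MSDC, against 0.92 and 0.68 TPM with vehicle, and 0.72 and 0.85 TPM in unstimulated libraries with MSDC, against 0.96 and 0.73 TPM with vehicle. All 8 libraries lay under 1 TPM. The 2 libraries given both agents were the lowest, and the other 3 groups overlapped one another. The log2 fold change with MSDC was -0.52 (SE 0.45) in Poly(I:C) cells and -0.07 (SE 0.43) in unstimulated cells. At 14 to 25 counts a library, small differences were not detectable at this depth.

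**Figure D2:**
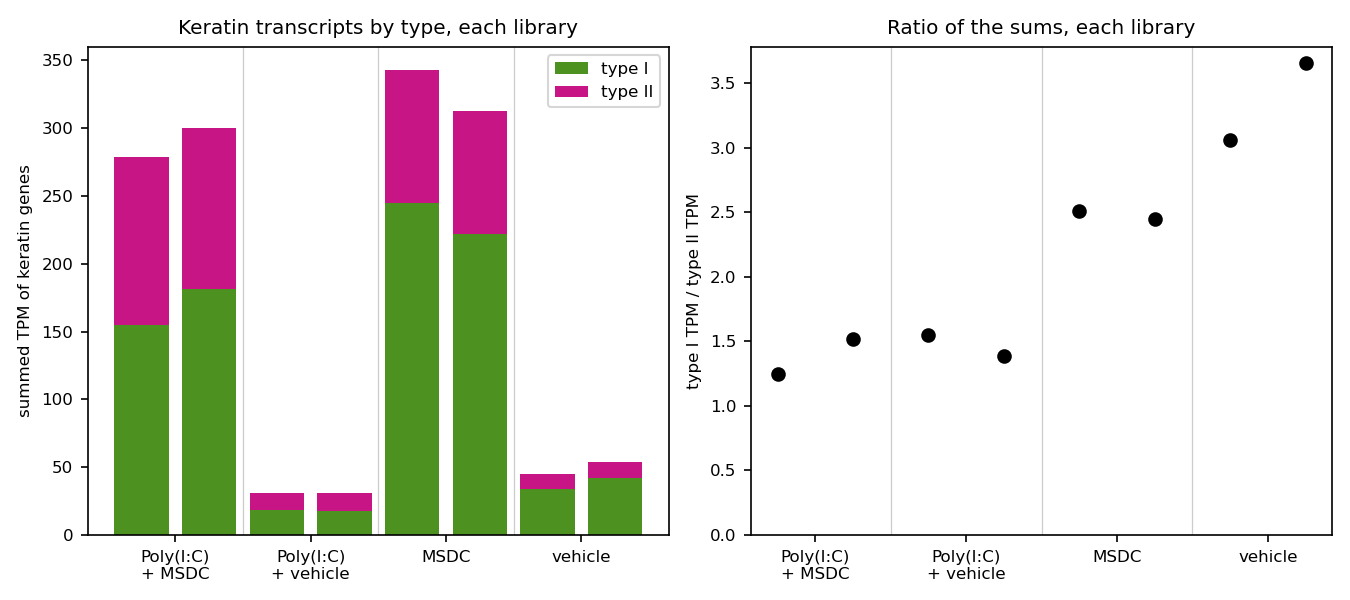
Left, summed TPM of type I (green) and type II (magenta) keratin genes in each library, as stacked bars from 0; right, the ratio of the 2 sums in each library, 1 point a library. The sums are 280 to 343 TPM in the 4 MSDC libraries, against 31.0 to 53.6 TPM in the 4 vehicle libraries, and the ratio runs from 1.25 to 3.66.

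Summed over the 17 keratin genes in the table, keratin transcripts reached 280 and 301 TPM in Poly(I:C) libraries with MSDC, against 31.2 and 31.0 TPM with vehicle. The unstimulated libraries had 343 and 314 TPM with MSDC, against 45.1 and 53.6 TPM with vehicle. Krt19 and Krt79 gave between 85.3% and 98.5% of each sum, and type I transcripts exceeded type II transcripts in every library. The ratio of type I to type II was 1.25 and 1.52 in Poly(I:C) cells with MSDC and 1.55 and 1.39 in those with vehicle, so these groups overlapped. Without Poly(I:C) it was 2.51 and 2.45 with MSDC, against 3.06 and 3.66 with vehicle.

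The other 13 keratin genes never exceeded 2.79 TPM, and 7 of them had no more than 5 counts in any library. Of the 5 that could be tested, Krt222 alone was called, with a log2 fold change with MSDC of 3.19 (SE 0.79, adjusted p = 0.00684) in unstimulated cells. This rested on 12 and 35 counts with MSDC, against 1 and 4 counts with vehicle, and the call was lost without MSDC replicate 2 or without vehicle replicate 1. No other keratin outside the 7 passed the test in any comparison. Krt80, the highest of them, had log2 fold changes with MSDC of 0.03 (SE 0.31, adjusted p = 0.964) in Poly(I:C) cells and -0.24 (SE 0.28, adjusted p = 0.63) in unstimulated cells. The medians of the 5 tested keratins were 0.54 and 1.21 with MSDC in Poly(I:C) and unstimulated cells, where the median of all tested genes was 0.00. Both medians were the values of Krt1 (SE 0.49 and 0.46, adjusted p = 0.475 and 0.0753), which held 13 to 46 counts a library. Krt78 and Krt222 lay above Krt1, and Krt7 and Krt80 below it, in both comparisons.

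**Figure D3:**
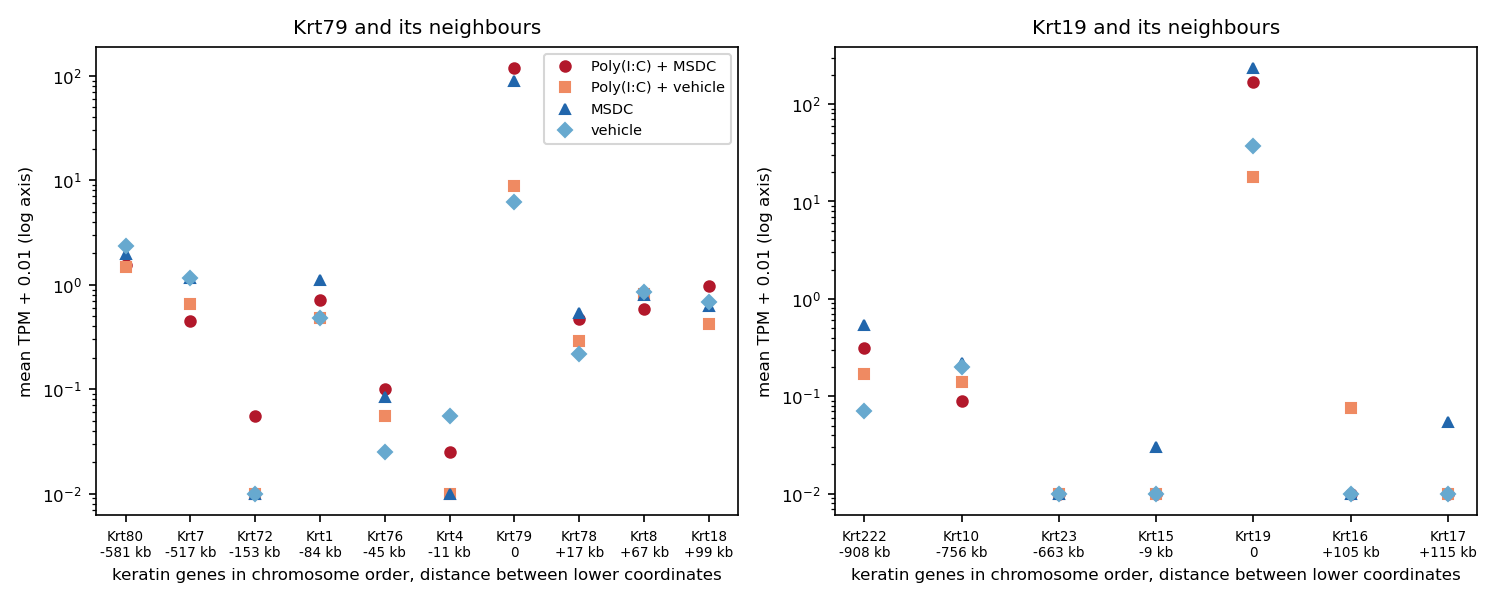
Mean TPM plus 0.01 of 2 libraries (log axis) for each keratin gene of the table on the chromosome of Krt79 (left) and of Krt19 (right), in chromosome order, with the distance in kb between lower coordinates. Symbols are the 4 groups; Krt79 and Krt19 stand above every neighbour in each group, and no neighbour exceeds 2.79 TPM in a library.

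Keratin genes lie in clusters, and the neighbours of Krt79 and Krt19 did not share their level. Krt4, 4597 bases from Krt79, averaged between 0 and 0.045 TPM in the 4 groups. Krt78, 5677 bases away on the opposite side, averaged 0.465 TPM with both agents and 0.28 TPM with Poly(I:C) and vehicle, and 0.53 TPM with MSDC alone against 0.205 TPM with vehicle alone. Its log2 fold change with MSDC in unstimulated cells was 1.43 (SE 0.51, adjusted p = 0.0585). Krt8 and Krt18 lie 56387 and 87892 bases from Krt79. Krt15, 4861 bases from Krt19, averaged at most 0.02 TPM. Lad1 lies between Tnni1 and Tnnt2, which averaged at most 0.035 and 0.205 TPM, and Ceacam2, a close relative of Ceacam1 that could share reads with it, averaged at most 0.015 TPM.

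Lad1 (gene ID 16763, chr1:135818598-135833341), the ladinin gene, showed the largest fold change of the 7 with MSDC. It had 6.19 and 6.74 TPM in Poly(I:C) libraries with MSDC, against 0.09 and 0.20 TPM with vehicle, and 8.90 and 8.60 TPM in unstimulated libraries with MSDC, against 0.16 and 0.15 TPM with vehicle. The 4 MSDC libraries held between 275 and 395 counts, against 4 to 9 counts in the 4 vehicle libraries, so no vehicle library came near an MSDC library. The log2 fold change was 5.43 (SE 0.26) in Poly(I:C) cells and 5.82 (SE 0.24) in unstimulated cells, ranked 10th and 7th from the top of all tested genes. Compressed by a pseudocount of 1 TPM, these became 2.71 and 3.08 with limma on log2(TPM + 1). With Poly(I:C) the log2 fold change was -0.05 (SE 0.51) in vehicle cells, where the groups overlapped, and -0.44 (SE 0.14) in MSDC cells, where they did not.

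Hemidesmosomes are the junctions that anchor epithelia to basement membrane. Of 8 tested genes of that list besides Lad1, 1 was called higher and 0 lower with MSDC in each of the 2 comparisons (12.5%, against 26.1% of all tested genes in Poly(I:C) cells and 23.5% in unstimulated cells), with medians of -0.03 in Poly(I:C) cells and -0.06 in unstimulated cells. The called gene was Itga6, the alpha-6 integrin subunit, which rose by 0.90 (SE 0.09, adjusted p = 1.3e-06) in Poly(I:C) cells and by 0.44 (SE 0.09, adjusted p = 0.00149) in unstimulated cells. It averaged 12.4 TPM with both agents and 6.59 TPM with Poly(I:C) and vehicle, and 11.3 TPM with MSDC alone against 8.46 TPM with vehicle alone. Its hemidesmosomal partner Itgb4 averaged between 0.1 and 0.16 TPM. Col17a1 and Lama3, a collagen and a laminin of the same anchorage, were too low to test, at no more than 0.035 and 0.06 TPM on average.

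Cdh1 (gene ID 12550, chr8:106603350-106670247), the E-cadherin gene, had 19.6 and 20.1 TPM in Poly(I:C) libraries with MSDC, against 21.1 and 21.4 TPM with vehicle. In unstimulated libraries it had 26.9 and 23.3 TPM with MSDC, against 33.3 and 30.6 TPM with vehicle. Vehicle alone was highest and both agents together lowest, and neighbouring groups in that order did not overlap, although Poly(I:C) with MSDC and with vehicle lay close together. Groups of 2 libraries often stand apart in this way without any difference. The log2 fold change with MSDC was -0.13 (SE 0.08) in Poly(I:C) cells and -0.32 (SE 0.08) in unstimulated cells, the second being -0.23 and short of the threshold without MSDC replicate 2. With Poly(I:C) it was -0.53 (SE 0.08) in vehicle cells and -0.34 (SE 0.08) in MSDC cells, the second ranging from -0.44 to -0.24 with 1 library left out. That second value was no longer past the threshold under 5 of 16 alternatives, namely both limma settings and leaving out either library of Poly(I:C) with MSDC or MSDC replicate 1.

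**Figure D4:**
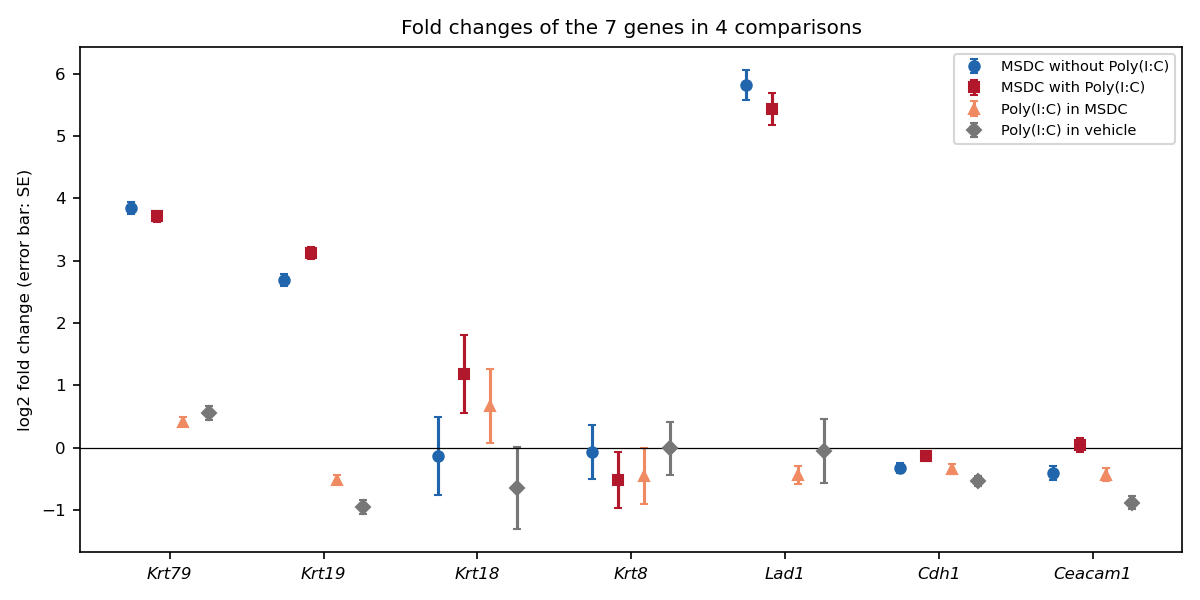
Log2 fold changes of the 7 genes in 4 comparisons, with error bars of 1 SE. MSDC is over vehicle and Poly(I:C) is over no Poly(I:C); Lad1, Krt79 and Krt19 lie between 2.69 and 5.82 with MSDC, Krt18 and Krt8 have the widest bars beside Lad1 with Poly(I:C) in vehicle cells, and Cdh1 and Ceacam1 lie between -0.88 and 0.05.

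The catenins that link E-cadherin to actin were abundant in these cells. Ctnnb1, encoding beta-catenin, averaged 617 TPM with both agents, 679 TPM with Poly(I:C) and vehicle, 644 TPM with MSDC alone and 782 TPM with vehicle alone. It fell by 0.25 on the log2 scale (SE 0.06, adjusted p = 0.00687) with MSDC in unstimulated cells. Ctnna1, Ctnnd1 and Jup (alpha-catenin, p120-catenin and plakoglobin) averaged between 60.2 and 98.1 TPM, and none of the 3 was called in any comparison. Of 14 tested catenin and adherens junction genes, 1 was called higher and 4 lower with MSDC in Poly(I:C) cells (35.7%, against 26.1% of all tested genes; median 0.01), and 2 higher and 5 lower in unstimulated cells (50%, against 23.5%; median -0.13).

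Among them Lima1, encoding the actin-binding protein EPLIN, which ties the cadherin complex to actin, rose. It averaged 166 ± 3.78 TPM with both agents and 59.3 ± 0.0141 TPM with Poly(I:C) and vehicle (SD, n = 2 each), and its log2 fold change was 1.45 (SE 0.06, adjusted p = 8.29e-11). Without Poly(I:C) the change was 1.11 (SE 0.06, adjusted p = 1.38e-09). Afdn, encoding afadin, the actin linker of nectins, fell by 0.96 (SE 0.10, adjusted p = 3.1e-06) and by 0.85 (SE 0.10, adjusted p = 1.09e-05) in the same 2 comparisons. Vcl, encoding vinculin, fell by 0.90 (SE 0.13, adjusted p = 9.78e-05) and by 0.74 (SE 0.13, adjusted p = 0.000461). Nectin4, an immunoglobulin-like adhesion gene, fell with MSDC by 1.13 (SE 0.16, adjusted p = 7.23e-05) in Poly(I:C) cells and by 1.29 (SE 0.22, adjusted p = 0.000303) in unstimulated cells, and rose with Poly(I:C) by 1.66 (SE 0.17, adjusted p = 3.8e-06) in vehicle cells and by 1.83 (SE 0.21, adjusted p = 1.61e-05) in MSDC cells.

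Cadherins other than Cdh1 were low. Of the 6 others in the table, Cdh5 and Cdh11 could be tested. Cdh5, the cadherin of endothelium, averaged 0.335 TPM with both agents against 1.60 and 1.39 TPM in the libraries with Poly(I:C) and vehicle, and 0.315 TPM with MSDC alone against 1.08 TPM with vehicle alone. It fell by 2.17 (SE 0.33, adjusted p = 0.000124) and by 1.74 (SE 0.35, adjusted p = 0.00135) in these comparisons. Cdh11 averaged between 1.08 and 1.21 TPM in the 4 groups and was not called in any comparison. Other endothelial markers beside Vwf were near 0, with Kdr at no more than 0.02 TPM and Pecam1 at no more than 0.175 TPM on average.

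Of 8 tested regulators known to repress or sustain Cdh1 and other epithelial genes, 2 were called higher and 2 lower with MSDC in Poly(I:C) cells (50%, against 26.1% of all tested genes), and 0 higher and 3 lower in unstimulated cells (37.5%, against 23.5%). DESeq2 called 1 higher in Poly(I:C) cells. Grhl1, 1 of the 2 higher calls with edgeR, had a log2 fold change of 0.82 (SE 0.21, adjusted p = 0.01). It averaged 2.15 TPM with both agents and 1.19 TPM with Poly(I:C) and vehicle. In unstimulated cells its log2 fold change with MSDC was -0.14 (SE 0.21, adjusted p = 0.714). Klf5, an epithelial transcription factor and 1 of the 2 higher calls, averaged 0.595 TPM with both agents and 0.12 TPM with Poly(I:C) and vehicle, and its call (log2 fold change 2.27, SE 0.80, adjusted p = 0.0494) was lost under 11 of 16 alternatives, among them DESeq2 and leaving out Poly(I:C) with MSDC replicate 1 or any library of Poly(I:C) with vehicle or of MSDC alone. Klf4, a transcription factor of epithelia and of monocytes, fell with MSDC in unstimulated cells by 0.33 (SE 0.07, adjusted p = 0.00246) and with Poly(I:C) in vehicle cells by 0.45 (SE 0.07, adjusted p = 0.000357). Zeb2, a repressor of Cdh1 in epithelial cells, averaged 62.9 and 75.8 TPM in Poly(I:C) cells with MSDC and with vehicle, and 62.2 and 86.7 TPM in unstimulated cells with MSDC and with vehicle. It fell by 0.33 (SE 0.08, adjusted p = 0.00745), a call lost with limma and without Poly(I:C) with MSDC replicate 2, and by 0.46 (SE 0.08, adjusted p = 0.000633). Zeb1 rose with Poly(I:C) by 1.30 (SE 0.22, adjusted p = 0.000901) in vehicle cells and by 1.53 (SE 0.24, adjusted p = 0.000554) in MSDC cells, at levels of no more than 2.04 TPM. Ovol2, which sustains epithelial identity, fell with MSDC by 1.42 (SE 0.27, adjusted p = 0.000997) in Poly(I:C) cells and by 1.24 (SE 0.26, adjusted p = 0.00218) in unstimulated cells. Snai1, Grhl2 and Elf3 were too low to test, with group means of 0 to 0.08 TPM.

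Ceacam1 (gene ID 26365, chr7:25461702-25477647) had 12.4 and 10.9 TPM in Poly(I:C) libraries with MSDC, against 9.79 and 12.2 TPM with vehicle. In unstimulated libraries it had 16.7 and 14.8 TPM with MSDC, against 21.6 and 20.7 TPM with vehicle. The 2 Poly(I:C) groups overlapped at the bottom, MSDC alone lay between, and vehicle alone was highest. The log2 fold change with Poly(I:C) was -0.88 (SE 0.11) in vehicle cells, which left 0.52 times the level, and -0.43 (SE 0.11) in MSDC cells. The value in MSDC cells lost its place past the threshold under 5 of 16 alternatives, namely both limma settings and leaving out Poly(I:C) with MSDC replicate 2 or either library of MSDC alone. With MSDC it was 0.05 (SE 0.11) in Poly(I:C) cells and -0.40 (SE 0.11) in unstimulated cells. The unstimulated value was no longer past the threshold with limma on log2(TPM + 0.1), or without MSDC replicate 2, where it was -0.33.

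Genes of the list of CEACAM1 relatives and partners were called in both directions. Of 12 tested besides Ceacam1, 3 were called higher and 6 lower with MSDC in Poly(I:C) cells (75%, against 26.1% of all tested genes), and 3 higher and 5 lower in unstimulated cells (66.7%, against 23.5%). Src, the kinase that phosphorylates the CEACAM1 tail, fell by 1.96 (SE 0.21, adjusted p = 2.56e-06) and by 1.58 (SE 0.23, adjusted p = 6.78e-05). Fgr, a related kinase of myeloid cells, fell by 0.91 (SE 0.09, adjusted p = 1.34e-06) and by 0.62 (SE 0.09, adjusted p = 7.91e-05). Havcr2, encoding TIM-3, a receptor reported to bind CEACAM1, fell by 0.49 (SE 0.07, adjusted p = 2.9e-05) and by 0.46 (SE 0.07, adjusted p = 5.73e-05).

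Tgfbi, encoding a secreted matrix protein, was on that list and among its lower calls, though nothing here links it to CEACAM1. Among genes of the list with a fall of over 1 on the log2 scale, Tgfbi was the most abundant. It averaged 116 ± 12.5 TPM with both agents and 419 ± 7.87 TPM with Poly(I:C) and vehicle, and 98.5 ± 9.95 TPM with MSDC alone and 345 ± 14.9 TPM with vehicle alone (SD, n = 2 each). Its log2 fold change with MSDC was -1.88 (SE 0.08, adjusted p = 1.78e-10) in Poly(I:C) cells and -1.78 (SE 0.08, adjusted p = 3.85e-10) in unstimulated cells. Ptpn6, which encodes SHP-1, rose with Poly(I:C) in vehicle cells by 0.36 (SE 0.07, adjusted p = 0.0022). This call was lost with limma on log2 TPM. Ceacam1 stood lower with Poly(I:C) in the same libraries. With MSDC in Poly(I:C) cells, Ptpn6 fell by 0.36 (SE 0.07, adjusted p = 0.00103), with -0.41 to -0.31 across the 16 alternatives. In unstimulated cells its log2 fold change with MSDC was -0.17 (SE 0.07, adjusted p = 0.107).

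Among tight junction genes, 2 claudins rose with MSDC and occludin fell. Cldn1, encoding claudin-1, a sealing protein of epithelial tight junctions, had 50.0 and 51.0 TPM in Poly(I:C) libraries with MSDC, against 3.84 and 4.80 TPM with vehicle, and 52.4 and 45.6 TPM in unstimulated libraries with MSDC, against 6.27 and 6.29 TPM with vehicle. All 4 MSDC libraries lay above all 4 vehicle libraries. It rose by 3.52 (SE 0.10, adjusted p = 1.73e-12) in Poly(I:C) cells and by 2.99 (SE 0.10, adjusted p = 6.83e-12) in unstimulated cells. Cldn23, a further claudin, rose by 2.69 (SE 0.25, adjusted p = 7.01e-07) and by 3.17 (SE 0.29, adjusted p = 4.77e-07). Ocln, encoding occludin, fell by 0.60 (SE 0.14, adjusted p = 0.00508), a call lost without Poly(I:C) with MSDC replicate 1, and by 0.75 (SE 0.14, adjusted p = 0.000752).

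Of 13 tested tight junction genes, 3 were called higher and 2 lower with MSDC in Poly(I:C) cells (38.5%, against 26.1% of all tested genes), and 2 higher and 1 lower in unstimulated cells (23.1%, close to the 23.5% of all tested genes), with medians of -0.09 and -0.03. F11r, encoding junctional adhesion molecule A, which is also on leukocytes, rose with Poly(I:C) in vehicle cells by 0.55 (SE 0.07, adjusted p = 2.26e-05). Tjp1, the scaffold ZO-1, averaged no more than 0.145 TPM. Claudins typical of lung epithelium stayed low, with Cldn18 at no more than 0.705 TPM and Cldn4 at no more than 0.81 TPM on average.

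**Figure D5:**
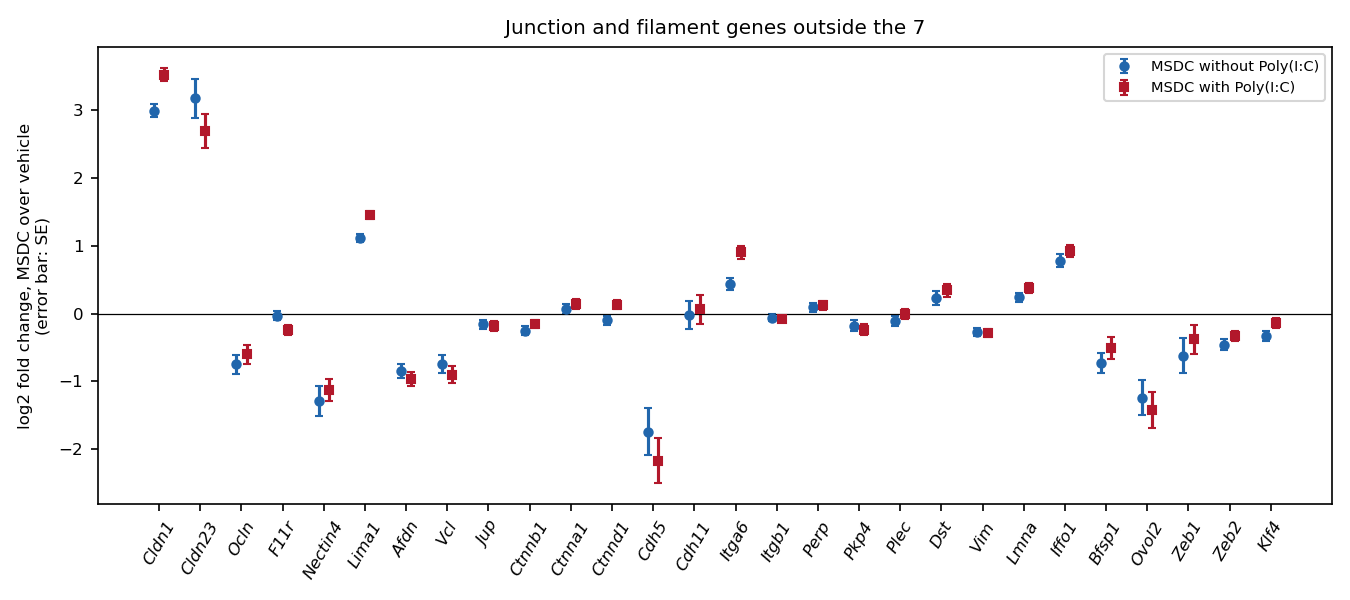
Log2 fold changes, MSDC over vehicle, of 28 junction, filament and regulator genes outside the 7, without Poly(I:C) (blue circles) and with it (red squares), with error bars of 1 SE. Cldn1, Cldn23 and Lima1 lie highest and Cdh5 lowest, while the catenins Jup, Ctnnb1, Ctnna1 and Ctnnd1 lie near 0.

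Some core genes of desmosomes, the junctions that keratin filaments attach to in epithelia, were near 0, though not Jup (plakoglobin, 60.2 to 78.7 TPM on average). Dsp, Dsg2 and Dsc2, which encode desmoplakin and a desmosomal cadherin of each kind, averaged no more than 0.025 TPM in any group. Of the 3 desmosome genes that could be tested, Pkp4 (plakophilin-4) was called, falling by 0.24 (SE 0.08, adjusted p = 0.0418) with MSDC in Poly(I:C) cells, and this call was lost under 12 of 16 alternatives, among them without any 1 library other than those of vehicle alone. Perp, a membrane protein of desmosomes, averaged between 65.3 and 73.3 TPM and was not called. Gap junction connexins were also low, with Gja1 and Gjb2 averaging no more than 0.045 and 0.115 TPM.

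Among the other intermediate filaments, Vim was the most abundant, averaging 2595 TPM with both agents, 3110 TPM with Poly(I:C) and vehicle, 2668 TPM with MSDC alone and 3270 TPM with vehicle alone. It fell with MSDC by 0.29 (SE 0.06, adjusted p = 0.00245) in Poly(I:C) cells and by 0.27 (SE 0.06, adjusted p = 0.00514) in unstimulated cells. Both calls were lost with limma on log2(TPM + 0.1), and the first also with limma on log2(TPM + 1). The second was also lost without MSDC replicate 2 and was -0.15 without vehicle replicate 2. Vim exceeded the summed keratins in every library and was lower with MSDC, where those sums were higher. Iffo1, a nuclear filament gene, rose by 0.92 (SE 0.09, adjusted p = 1.04e-06) and by 0.78 (SE 0.09, adjusted p = 5.85e-06). Of 9 tested filament genes, 2 were called higher and 2 lower with MSDC in each comparison (44.4%, against 26.1% of all tested genes in Poly(I:C) cells and 23.5% in unstimulated cells). Of 9 tested plakins and keratin partners, 3 were called higher and 0 lower with MSDC in Poly(I:C) cells (33.3%, against 26.1%), where DESeq2 called 1 higher. Among the 3 was Dst, encoding the plakin dystonin, with a log2 fold change of 0.34 (SE 0.10, adjusted p = 0.0149), a call lost under 5 of 16 alternatives, among them leaving out either library of Poly(I:C) with MSDC or Poly(I:C) with vehicle replicate 2 (0.20 to 0.48 with 1 library left out). In unstimulated cells 0 were called higher and 1 lower (11.1%, against 23.5%), where Sfn, a 14-3-3 protein that binds keratins, fell by 0.66 (SE 0.17, adjusted p = 0.00945), a call lost without MSDC replicate 1.

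Pooled over the pathway lists and the other keratins, 88 genes outside the 7 were tested. With MSDC, 15 were called higher and 19 lower in Poly(I:C) cells (38.6%, against 26.1% of all tested genes), and 11 higher and 19 lower in unstimulated cells (34.1%, against 23.5%). With Poly(I:C), 7 were called higher and 9 lower in vehicle cells (18.2%, against 11.6%), and 4 higher and 2 lower in MSDC cells (6.82%, against 6.32%). The medians of the 88 lay between -0.07 and -0.02 in these 4 comparisons, where that of all tested genes was 0.00. These comparisons share libraries in pairs, so their counts are not independent of one another. E-cadherin receptors and the enzymes that shed it had 4 tested genes, of which Adam15, a membrane protease, was called, falling by 0.77 (SE 0.06, adjusted p = 1.83e-07) and by 0.72 (SE 0.06, adjusted p = 4.22e-07) with MSDC.

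Whether the effect of MSDC differed between Poly(I:C) and unstimulated cells is the interaction, the log2 fold change with Poly(I:C) minus that without it. It was 0.43 (SE 0.13) for Krt19, 0.45 (SE 0.16) for Ceacam1, 0.20 (SE 0.11) for Cdh1, -0.15 (SE 0.13) for Krt79 and -0.39 (SE 0.54) for Lad1. Krt18 and Krt8 had values of 1.32 (SE 0.88) and -0.44 (SE 0.62). None of the 7 was past the adjusted threshold with edgeR or with DESeq2. With 2 libraries a group the interaction is estimated with little precision. A missing call therefore does not show that the effect of MSDC was the same with and without Poly(I:C). Of all tested genes, 0.224% were called, 0.12% with a higher and 0.103% with a lower difference. The 88 listed genes gave 0 calls with edgeR and 0 with DESeq2.

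The order of levels differed between the 7 genes. Because groups of 2 libraries often do not overlap without any difference, this order is a description only. Krt79 was highest with both agents, then with MSDC alone, then with Poly(I:C) and vehicle, and lowest with vehicle alone, with no overlap between neighbours. Krt19 ran from MSDC alone through both agents and vehicle alone down to Poly(I:C) with vehicle, again without overlap. Lad1 had the order of Krt19, but its 2 vehicle groups overlapped. Cdh1 and Ceacam1 were highest with vehicle alone, then with MSDC alone; the 2 Poly(I:C) groups came last and overlapped for Ceacam1. Placed among all genes of the table by mean TPM, Krt19 stood above 94.1% of them with both agents and above 62.7% with Poly(I:C) and vehicle, and above 95.9% with MSDC alone against 76.5% with vehicle alone. Krt79 stood above 91.5% and 50.5%, and above 88.7% and 46%, in the same 4 groups.

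Since keratins, claudins and E-cadherin are epithelial products, markers of lung epithelium were set beside these levels. Of 24 listed, 22 were in the table, 13 stayed under 1 TPM in every library, and 3 exceeded 10 TPM in a library: Abca3, Napsa and Pdpn. The 22 summed to 93.6 and 99.8 TPM in Poly(I:C) libraries with MSDC, against 156 and 150 TPM with vehicle, and to 96.1 and 92.1 TPM in unstimulated libraries with MSDC, against 157 and 148 TPM with vehicle. Of the 12 tested, 1 was called higher and 2 lower with MSDC in Poly(I:C) cells (25%, against 26.1% of all tested genes). In unstimulated cells 0 were called higher and 2 lower (16.7%, against 23.5%). The largest difference was in Napsa, averaging 41.6 against 91.2 TPM in Poly(I:C) cells and 32 against 82.7 TPM in unstimulated cells. Pdpn was also lower, at 12.8 against 25.2 TPM and 13.2 against 22.4 TPM. Abca3 lay in the opposite direction, at 32 against 26.8 TPM and 37 against 33.4 TPM. Without those 3 genes the sums were between 9.07 and 11.9 TPM in the 4 MSDC libraries, against 8.33 to 15.1 TPM in the 4 vehicle libraries. The surfactant genes Sftpc, Sftpb, Sftpa1 and Sftpd together held 0 to 4 counts in each library, and Epcam averaged between 0.6 and 0.925 TPM. Mesothelial markers summed to between 0.43 and 1.41 TPM, fibroblast markers to between 0.07 and 0.40 TPM, T and NK cell markers to at most 0.27 TPM and B cell markers to at most 0.16 TPM.

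Markers of 3 other cell types differed in level between the groups. The 2 neutrophil markers in the table, S100a8 and Cxcr2, summed to 42.1 and 32.1 TPM in Poly(I:C) libraries with MSDC, against 28.1 and 28.1 TPM with vehicle, and to 38.7 and 46.5 TPM in unstimulated libraries with MSDC, against 25.6 and 32.5 TPM with vehicle. Nearly all of these sums was S100a8. Cxcr2 lay in the opposite direction, averaging 0.28 TPM against 0.64 TPM and 0.305 TPM against 0.73 TPM in the same comparisons, and was not called (log2 fold changes -1.10 and -0.72, adjusted p = 0.166 and 0.419). The 6 dendritic cell markers summed to 4.67 and 3.98 TPM, against 6.84 and 8.47 TPM, and to 2.79 and 3.10 TPM, against 5.66 and 4.75 TPM, in the same order of groups. The 5 endothelial markers, nearly all of it Vwf, summed to 24.1 and 23.1 TPM, against 29.4 and 26.1 TPM, and to 31.2 and 30.1 TPM, against 44.9 and 43.5 TPM. Their part in the levels of the 7 genes was not tested. In such bulk samples, fewer cells of a type and less RNA per cell cannot be told apart.

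For each of the 7, the genes with the nearest profiles over the 8 libraries were listed. Likeness was measured as the root-mean-square difference between 2 profiles of log2 CPM, each centred on its own mean, among 9305 genes of sufficient level. Nearest to Krt79 were Ear1 (0.083), an eosinophil-associated ribonuclease gene with close relatives that could share its reads, Cidec (0.269), a lipid droplet protein gene, and Epor (0.355), the erythropoietin receptor gene, where the profile of Krt79 itself spread by 1.904. Nearest to Krt19, with a spread of 1.504, were Mn1 (0.211), Sema3e (0.218) and Lrrc39 (0.243). Lad1, with a spread of 2.670, had Pitpnm2 (0.270), Acaa1b (0.325), a peroxisomal thiolase gene, and Cyp4a12a (0.401), a fatty acid hydroxylase gene with a near-identical copy.

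Ear1 followed Krt79 at a far higher level. It averaged 2092 ± 23.6 TPM with both agents and 158 ± 10.2 TPM with Poly(I:C) and vehicle, and 1615 ± 2.43 TPM with MSDC alone and 120 ± 0.764 TPM with vehicle alone (SD, n = 2 each). Cdh1, whose profile spread by 0.254, was nearest to Deptor (0.053), an mTOR inhibitor gene, and Coro1a (0.071), a leukocyte actin regulator gene, and Ceacam1, with a spread of 0.375, to Adgrg1 (0.122), an adhesion receptor gene. For Krt8 and Krt18 the nearest were Jade3 (0.081) and Pigl (0.341), against spreads of 0.245 and 0.530, so Pigl was not close to Krt18. At 14 to 25 and 7 to 30 counts a library, counting error may make up much of these 2 profiles. These distances are descriptions over 8 libraries and carry no test.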

How the data were processed

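RNA-seq of 8 libraries in 4 groups was analysed from 1 table of genes by libraries. Per the file headers, the authors made and deposited an estimated count per gene and library, as well as FPKM and TPM values normalized for gene length, of which the deposited FPKM values were not used. Per the submitters' processing notes the tools were TopHat2 2.1.1, Bowtie2 2.3.4 and Cuffdiff, on GRCm38 (mm10); the role of each, the gene models and the use of strand are not given in the sources used here, so reads of overlapping genes or close relatives may have been split. Between 5.95% and 7.19% of the deposited counts were not whole numbers and were rounded for the tests. Libraries held 28762425 to 29493223 counts, at which 3 counts are 0.102 to 0.104 CPM. Gene IDs matched RefSeq GRCm38.p6 for 99.3% of 15521 genes.

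Counts were fitted with edgeR 4.0.16 (glmQLFit, TMM factors, filterByExpr with a minimum count of 10) in R 4.3.3, with all 8 libraries in 1 fit of 4 groups. The quasi-likelihood test was two-sided with Benjamini-Hochberg adjustment over 11621 genes. SE is the size of the log2 fold change divided by the square root of its F statistic. DESeq2 1.42.0 and limma 3.58.1 on log2(TPM + 1) and log2(TPM + 0.1) were alternatives, beside other scalings, filters, designs and leaving out each library. With 2 libraries a group, an exact permutation test of a single gene cannot reach 0.05 and was not used.

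The 7 genes, the gene lists and the cell type markers were chosen with earlier results of these data known. Genes named besides the 7 were the other keratins with at least 10 counts in a library, for each list up to 4 tested genes with the smallest p with MSDC in unstimulated cells and up to 2 with the smallest p with Poly(I:C) in vehicle cells, the 3 nearest profiles of each of the 7, and Isg15 and Pdk4. Other genes named as low, as abundant, as cell type markers, as lying next to 1 of the 7 or, like Grhl1, as a call of a list were chosen after their values were seen. Some genes that the rule names are not described in the text.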

Additional observations from a re-analysis of the deposited data

How the results depend on the processing

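The number of called genes stayed within 1.5 times of its value under each alternative for MSDC in unstimulated cells (2734; 1861 to 2902 with 1 library left out) and in Poly(I:C) cells (3036; 2156 to 3581). For Poly(I:C) in vehicle cells 1351 genes were called, 780 with limma on log2(TPM + 0.1) and 864 to 1582 with 1 library left out. For Poly(I:C) in MSDC cells 734 were called, 1182 when only these groups were fitted, 477 and 428 with limma on log2(TPM + 1) and log2(TPM + 0.1), and 414 to 1094 with 1 library left out. The interaction gave 26 calls, 48 with DESeq2, 116 without the filter, 5 with limma on log2(TPM + 0.1), and 5 to 89 with 1 library left out; the cause was not tested. Scaling by library totals alone changed the share of higher calls with Poly(I:C) in vehicle cells to 45.7%, against 64.7%, and for the interaction to 77.8%, against 53.8%, while the median of all genes shifted by at most -0.055. Differences between replicates correlated at -0.026 to 0.034 over 6 pairs of groups, so no large difference went with the library number. All tested genes were weighted alike, and noise of low counts draws such a correlation towards 0. Whether libraries of the same number were paired therefore cannot be told from it, and the labels name no pairing. With a replicate block the calls were 2941 and 2620 with MSDC in Poly(I:C) and unstimulated cells, 1300 and 692 with Poly(I:C) in vehicle and MSDC cells, and 24 for the interaction. Across 16 alternatives the log2 fold change with MSDC in unstimulated cells was 3.63 to 4.01 for Krt79 and 2.58 to 2.83 for Krt19, and in Poly(I:C) cells 3.60 to 3.74 and 3.04 to 3.22. For Krt18 it was 0.08 to 1.80 in Poly(I:C) cells. A pseudocount of 1 TPM compressed the changes of low genes, as for Cdh5 (-0.66 and -0.90 in unstimulated and Poly(I:C) cells), Cldn23 (2.05 in unstimulated cells), Src (-0.88 and -1.26) and Nectin4 (-0.74 in unstimulated cells).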
